A study of Mus musculus with 6 samples.

Results

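To examine how loss of progranulin (PGRN) bears on the factors that set the lifetime of cytokine transcripts, 9 genes were read from the RNA sequencing of macrophages challenged with live Candida albicans. They were chosen by gene name from a table of 54532 genes: Zfp36, Zfp36l1 and Zfp36l2, Zc3h12a and Zc3h12c, Rc3h1 and Rc3h2, Khsrp, and Elavl1. PGRN is a secreted glycoprotein encoded by Grn. The groups were 3 libraries of wild type (WT) C57BL/6J macrophages, replicates 1, 2 and 3, and 3 libraries of progranulin knockout (PGRN KO) C57BL/6J macrophages, replicates 4, 5 and 6. According to the labels, cells from the peritoneal cavity were plated overnight at 2000000 per well, and both groups received 1 fungal colony-forming unit per macrophage for 6 hours, so that there is no comparison with unchallenged cells. In the study's own text the cells are named as bone marrow-derived and the ratio of fungus to cells is another one, the titles of the WT samples carry the word control although their treatment label is the challenge, and here the treatment and source labels were followed. PGRN KO mice were obtained from another supplier than the WT mice, and the effect of the supplier cannot be told apart from that of the genotype.

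The mRNAs of many cytokines are made in bursts and removed within minutes to hours, which keeps inflammation short. The signals for removal lie in the 3' untranslated region (UTR). Zfp36 encodes tristetraprolin, the founder of a family of zinc finger proteins that bind AU-rich elements and recruit the CCR4-NOT deadenylase, and Zfp36l1 and Zfp36l2 encode its relatives. Zc3h12a encodes the endoribonuclease Regnase-1, which cleaves mRNAs at stem-loops, and Zc3h12c encodes a relative with the same kind of nuclease domain. Rc3h1 and Rc3h2 encode Roquin-1 and Roquin-2, which bind a stem-loop called the constitutive decay element and recruit the same deadenylase. Khsrp encodes the KH domain protein KSRP, which promotes decay through AU-rich elements, whereas Elavl1 encodes HuR, which binds AU-rich and U-rich RNA and stabilises it. A transcript level reflects synthesis and decay together, and these data do not separate them.

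The elements these proteins read were located in the 3' UTRs of GENCODE transcripts (GRCm38, 1 transcript per gene). The AU-rich nonamer TTATTTATT, the preferred site of tristetraprolin, occurred in 7.25% of the 7834 tested genes with a 3' UTR. It is shown first in Tnf, the best known target, and then in the genes of the decay factors themselves, because these carry it as well. Capitals mark the nonamer, and overlapping copies run together.
Tnf (chr17:35199679-35199708, minus strand): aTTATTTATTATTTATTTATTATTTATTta
Zfp36 (chr7:28376950-28376979, minus strand): tatgacgactTTATTTATTgtattaagatt
Zfp36l1 (chr12:80108166-80108195, minus strand): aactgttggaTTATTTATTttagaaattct
Zfp36l2 (chr17:84184913-84184942, minus strand): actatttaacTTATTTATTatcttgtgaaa
Rc3h1 (chr1:160970043-160970072, plus strand): actttactcaTTATTTATTgagatgaggag
Rc3h2 (chr2:37373286-37373315, minus strand): caaagacattTTATTTATTttactctgtaa
Elavl1 (chr8:4285781-4285810, minus strand): aaaaTTATTTATTTATTTATTTATTtttat

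Thus 6 of the 9 members held the nonamer. Their 3' UTRs had 774 to 7181 bases, against a median of 947.5 bases in tested genes. The shares of tested genes given here do not take this length into account. The 3' UTR of Elavl1 (4218 bases) had 8 copies, of which 4 stood in the stretch shown, and 0.0511% of tested 3' UTRs had 8 or more. Zfp36, Zfp36l1, Zfp36l2, Rc3h1 and Rc3h2 had 1 copy each. Zc3h12a, Zc3h12c and Khsrp had 0 copies in this transcript. Tnf had 5.

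The core of the constitutive decay element was searched as TTC, a pyrimidine, a purine, a pyrimidine and GAA, on the sense strand, and 5.23% of tested 3' UTRs held it. Pairing of the flanking bases was not examined. It is shown in Tnf, in Nfkbid and Nfkbiz, which encode nuclear regulators of NF-kB, and in both Roquin genes. Capitals mark the core.
Tnf (chr17:35199577-35199606, minus strand): cagacatgttTTCTGTGAAaacggagctga
Nfkbid (chr7:30428395-30428424, plus strand): tctaggtgatTTCTGTGAAatcgagcccac
Nfkbiz (chr16:55812606-55812635, minus strand): tgtaagttgtTTCTATGAAacaaacccatt
Rc3h1 (chr1:160968032-160968061, plus strand): tttgtttttgTTCTGTGAAtgaactttatt
Rc3h2 (chr2:37373801-37373830, minus strand): tttaattaacTTCTGTGAAgttgtttactc

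Rc3h1 held 2 copies of this core, Rc3h2 1 copy and Elavl1 1 copy, and the other 6 members held 0. A match of letters is a description of the sequence and says nothing of binding in these cells.

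Levels are given as FPKM, the deposited unit, which scales fragments to the length of the gene model and to a library size. The size recovered from the values was not the sum of counted fragments. It was 14790124 to 18044262 in WT and 17282814 to 18932185 in PGRN KO. The libraries held 15996786 to 17551619 counted fragments. Each member had between 292 (Zc3h12c in PGRN KO replicate 6) and 22306 (Zfp36 in WT replicate 2) fragments per library. Annotated genes that overlap a member had at most 58 fragments in a library, the highest being Ccl25 opposite Elavl1. The targeted gene Grn was at 323, 337 and 325 FPKM in the WT libraries and at 0.0166, 0 and 0.0167 FPKM in the PGRN KO libraries. PGRN KO replicate 6 stood apart: relative to the mean of the 6 libraries, the 1777 longest tested genes had a median log2 deviation of -0.29 in it and the 1777 shortest a median of 0.29, whereas these medians lay between -0.08 and 0.10 in the other 5 libraries. Macrophage markers were abundant in both groups, their summed FPKM being 7098 to 7431 in WT and 7245 to 9734 in PGRN KO. The 5 B cell markers summed to 1.501 to 2.495 FPKM in WT and 6.62 to 8.92 in PGRN KO, and the 5 mast cell markers to 2.23 to 3.19 and 9.31 to 13.9 FPKM, respectively. In each of these lists 2 of the 5 markers were tested, both were significantly higher in PGRN KO, and no marker was at 0 in all libraries. The sums of untested markers were also apart for T cells (0.9615 to 1.36 FPKM in WT, 2.11 to 2.56 in PGRN KO), mesothelium and fibroblasts (0.491 to 0.561 and 0.734 to 1.39) and dendritic cells (1.84 to 2.27 in WT, at most 1.44 in PGRN KO). Markers within these lists differed in direction in the fit without a filter on low values. Xcr1 and Flt3 were lower (log2 fold change -0.63 and -0.24), whereas Zbtb46 and Clec9a were slightly higher (0.13 and 0.03). Col1a1, Col3a1 and Wt1 were higher (0.33, 0.21 and 0.03), whereas Msln, Krt19 and Upk3b were slightly lower (-0.045, -0.042 and -0.016). The mast cell marker Kit was lower (-0.15), unlike the others of its list. Of 9 tested macrophage markers 2 were significantly higher and 1 lower. The part of these cells in the results was not tested, and in bulk samples fewer cells expressing a gene and less RNA per cell cannot be told apart.

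Of the decay and stability factors, 5 were significantly lower in PGRN KO cells and none was significantly higher. All 9 members passed the filter of a mean FPKM of at least 1 and were tested among 8882 genes with limma on log2(FPKM + 1), a scale on which the change of a low gene is understated. Those past a Benjamini-Hochberg adjusted p of 0.05 were Zfp36l2, Zfp36l1, Zc3h12c, Zc3h12a and Elavl1. Among all tested genes 24.2% were significant, 13.8% lower and 10.4% higher. With summed fragments as the library size, 695 genes were lower and 1179 higher, against 1230 and 921 at the deposited size. For 8 of the 9 members, all but Zfp36, every PGRN KO library lay below every WT library in FPKM, against 27.6% of all tested genes. Both were read at the deposited library size. For Rc3h2 the gap was small, 2.16 FPKM in the lowest WT library against 2.13 in the highest PGRN KO library. It does not hold when its fragments are scaled to the summed fragments. The log2 fold changes of the 9 members lay between -1.01 and -0.24 with a median of -0.39, against -0.03 for all tested genes. Every member stayed lower under every alternative that was run, but the number past the threshold depended on single libraries: it was 1 without WT replicate 1, 7 without PGRN KO replicate 6, and 2 when any of the other 4 libraries was left out.

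**Figure D1:**
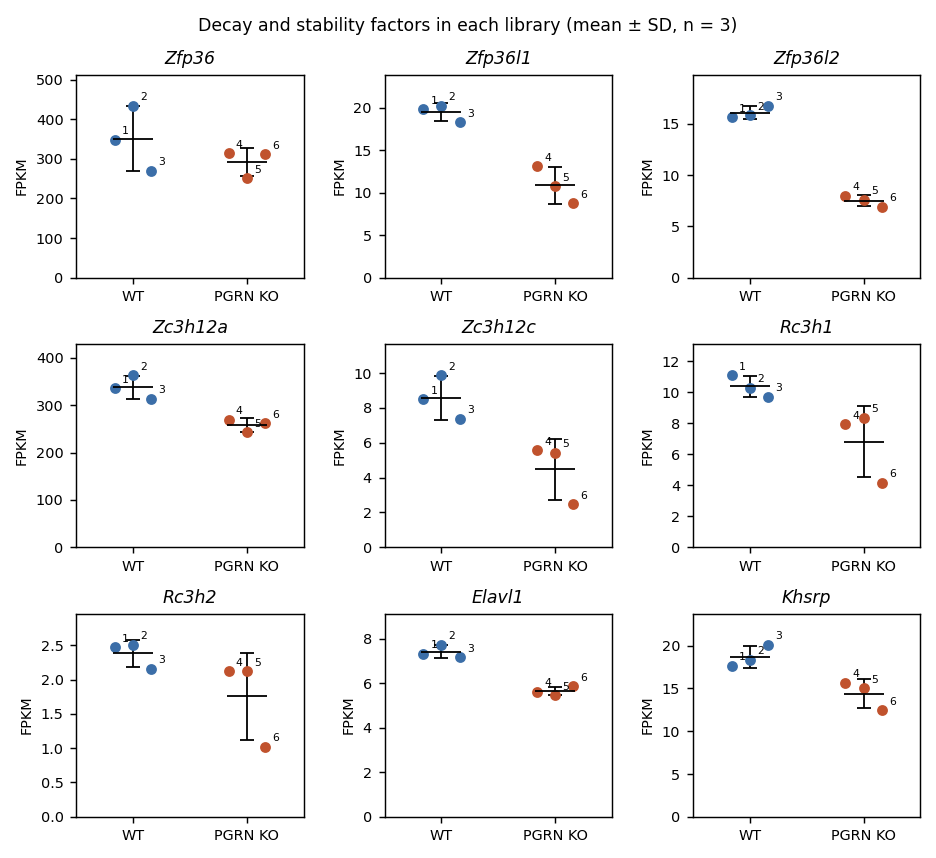
FPKM (y axis, from 0) of the 9 members in each library, WT replicates 1 to 3 in blue and PGRN KO replicates 4 to 6 in orange, with the mean and SD of each group (n = 3). The groups separate for 8 of the 9 genes and overlap for Zfp36, and PGRN KO replicate 6 lies far below the other PGRN KO libraries for Zc3h12c, Rc3h1 and Rc3h2.

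Levels of the members spanned a wide range, and 1 member of each of the zinc finger, Regnase and Roquin families predominated. Zfp36 and Zc3h12a were higher than 98.3% and 98.1% of tested genes in mean FPKM, and their libraries overlapped each other in both genotypes. Khsrp and Zfp36l1 came next and overlapped each other, followed by Zfp36l2, Rc3h1, Zc3h12c and Elavl1. Zfp36l2 was above Rc3h1 in every WT library, but the ranges of these genes overlapped in PGRN KO, and Zc3h12c and Elavl1 overlapped in both genotypes. Rc3h2 was the lowest member, above 19.9% of tested genes.

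In the zinc finger family both relatives passed the threshold, and the dominant member did not. Zfp36 (ENSMUSG00000044786, chr7:28376784-28380253) was at 348, 435 and 271 FPKM in WT and at 315, 252 and 311 FPKM in PGRN KO. Its PGRN KO libraries lay inside or below the WT range, and the groups overlapped. WT cells averaged 351 ± 82.1 FPKM and PGRN KO cells 293 ± 35.3 FPKM (SD, n = 3 each), with a log2 fold change of -0.24 ± 0.19 (SE, 95% interval -0.69 to 0.20, limma adjusted p = 0.373). This interval holds falls as large as those of Rc3h1 as well as a small rise, so a stable level of tristetraprolin mRNA was not shown. It passed the threshold in 0 of 19 alternatives.

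Zfp36l1 (ENSMUSG00000021127, chr12:80107754-80113013) was at 19.9, 20.3 and 18.3 FPKM in WT and at 13.2, 10.8 and 8.80 FPKM in PGRN KO. All PGRN KO libraries were below all WT libraries, and replicate 6 was the lowest. The level in PGRN KO was 56.0% of that in WT, with a log2 fold change of -0.80 ± 0.14 (SE, limma adjusted p = 0.00989), and it passed in 18 of 19 alternatives, the exception being the fit without WT replicate 1 (adjusted p = 0.0507).

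Zfp36l2 (ENSMUSG00000045817, chr17:84183931-84187947) had the log2 fold change farthest from 0 of the 9 members. It was at 15.6, 15.9 and 16.8 FPKM in WT and at 7.998, 7.62 and 6.90 FPKM in PGRN KO. The libraries of each genotype lay close together and far from those of the other, the means being 16.1 ± 0.605 and 7.51 ± 0.557 FPKM (SD, n = 3 each). The mean FPKM of PGRN KO cells was thus 46.6% of that of WT. On the scale of log2(FPKM + 1) the fold change was -1.01 ± 0.09 (SE, limma adjusted p = 0.0014), and 1.15% of tested genes had a lower one. The call held in 19 of 19 alternatives, with adjusted p between 3.34e-05 and 0.0147. In its transcripts 0.0571% of the 31-base words occurred in another gene, against 6.79% for Zfp36l1, which shared the most with the pseudogene Zfp36l1-ps. Reads shared between genes were not examined.

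The share of Zfp36 in its family was higher in every PGRN KO library. It supplied 90.7%, 92.3% and 88.5% of the summed FPKM of Zfp36, Zfp36l1 and Zfp36l2 in WT and 93.7%, 93.2% and 95.2% in PGRN KO. The groups did not overlap, with means of 90.5% ± 1.91 and 94.0% ± 1.04 (SD, n = 3 each). The exact two-sided permutation p was 0.1, below which 3 against 3 libraries cannot go, and the adjusted p over the 3 shares computed was 0.1. This share does not depend on the scaling of the libraries.

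In the Regnase family, Zc3h12a (ENSMUSG00000042677, chr4:125118423-125127840) was at 336, 364 and 314 FPKM in WT and at 270, 242 and 262 FPKM in PGRN KO. The lowest WT library was above the highest PGRN KO library. The means were 338 ± 24.9 and 258 ± 14.1 FPKM (SD, n = 3 each), and the log2 fold change of -0.39 ± 0.10 (SE, limma adjusted p = 0.0345) was nearly the same without PGRN KO replicate 6, at -0.40. It passed in 12 of 19 alternatives and was lost when any library other than PGRN KO replicate 6 was left out (adjusted p 0.0687 to 0.14).

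Zc3h12c (ENSMUSG00000035164, chr9:52111344-52168572) was at 8.49, 9.89 and 7.38 FPKM in WT and at 5.58, 5.42 and 2.47 FPKM in PGRN KO. The groups did not overlap, but replicate 6 was at 44.9% of the mean of the other PGRN KO libraries. The log2 fold change was -0.85 ± 0.25 (SE, limma adjusted p = 0.0499), at the edge of the threshold, and it was -0.55 without replicate 6 (adjusted p = 0.0115). Only 6 of 19 alternatives kept the call. Zc3h12a made up 97.5% ± 0.175 of the summed FPKM of both genes in WT libraries and 98.3% ± 0.682 of it in PGRN KO libraries (SD, n = 3 each, exact permutation p = 0.1). In the Roquin family Rc3h1 made up 81.3% ± 0.806 and 79.6% ± 0.707, respectively (exact permutation p = 0.1).

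In deposited FPKM the Roquin genes were lower in every PGRN KO library without passing the threshold. Rc3h1 (ENSMUSG00000040423, chr1:160906418-160974978) was at 11.1, 10.3 and 9.71 FPKM in WT and at 7.92, 8.34 and 4.17 FPKM in PGRN KO. Replicate 6 was again low, at 51.2% of the mean of replicates 4 and 5. The log2 fold change of -0.59 ± 0.22 (SE, limma adjusted p = 0.0993) shrank to -0.31 without replicate 6 and then passed (adjusted p = 0.016).

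Rc3h2 (ENSMUSG00000075376, chr2:37370069-37422903) was at 2.48, 2.51 and 2.16 FPKM in WT and at 2.12, 2.13 and 1.02 FPKM in PGRN KO. The libraries of replicates 4 and 5 were just below the lowest WT library, and replicate 6 was at 48.2% of their mean. The log2 fold change was -0.32 ± 0.18 (SE, limma adjusted p = 0.23), and it was -0.11 without replicate 6 and -0.06 after a correction of each library for gene length and GC content. Zc3h12c, Rc3h1 and Rc3h2 have gene models longer than those of 79.4%, 94.6% and 99.4% of tested genes, respectively, whereas Elavl1, longer than 92.9%, was not low in replicate 6, at 106% of the mean of replicates 4 and 5.

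Khsrp (ENSMUSG00000007670, chr17:57021051-57031522) was at 17.7, 18.4 and 20.1 FPKM in WT and at 15.7, 15.0 and 12.5 FPKM in PGRN KO. The groups did not overlap, and the log2 fold change of -0.36 ± 0.11 (SE, limma adjusted p = 0.0551) lay just outside the threshold. It passed in 5 of 19 alternatives, among them the fit without PGRN KO replicate 6 (log2 fold change -0.27, adjusted p = 0.0253). Of its 31-base words, 6.92% occurred in other genes, most of them in Gm8602.

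Elavl1 (ENSMUSG00000040028, chr8:4285382-4325413), the stabilising factor of the set, was at 7.32, 7.73 and 7.17 FPKM in WT and at 5.62, 5.46 and 5.85 FPKM in PGRN KO. The groups were narrow and did not overlap. The log2 fold change was -0.34 ± 0.08 (SE, limma adjusted p = 0.0258), and PGRN KO cells held 76.2% of the WT level. The call held in 10 of 19 alternatives, and after the length and GC correction the log2 fold change was -0.17 (adjusted p = 0.328), whereas it was -0.32 (adjusted p = 0.00671) when PGRN KO replicate 6 was also left out.

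**Figure D2:**
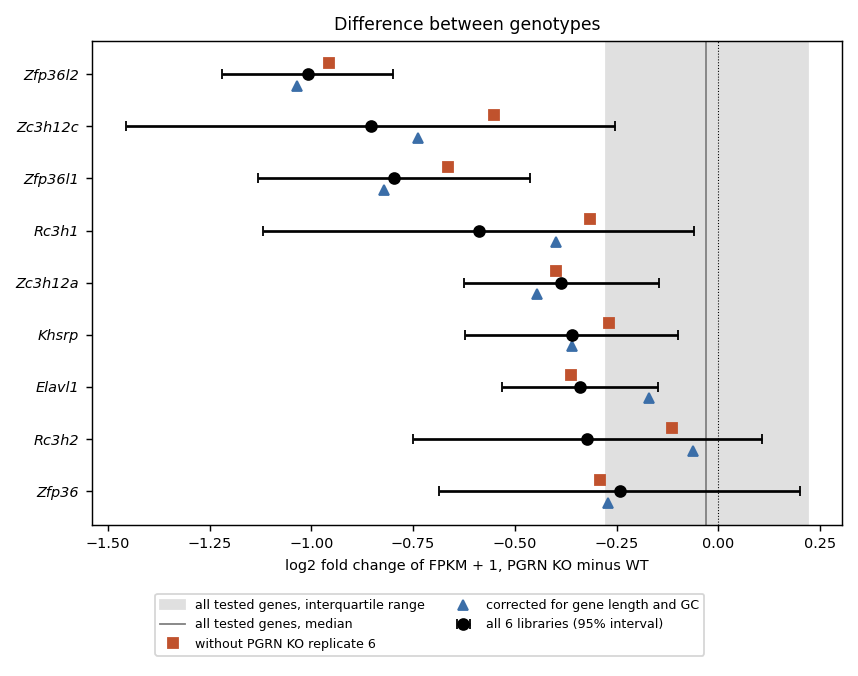
Log2 fold change of FPKM + 1, PGRN KO minus WT (x axis), of the 9 members with the 95% interval of the limma fit over all 6 libraries (black), without PGRN KO replicate 6 (squares) and after correction for gene length and GC content (triangles), over the interquartile range of all tested genes (grey band) and their median (-0.03). All members lie below 0, Zfp36l2 at -1.01 and Zfp36 at -0.24, and without replicate 6 the points of 6 members move toward 0, farthest for Zc3h12c, Rc3h1 and Rc3h2.

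Genes that work with these factors were counted from lists made from general knowledge of mRNA decay. Of 104 such genes 80 were tested, and 24 (30%) were significantly lower and 5 (6.25%) significantly higher. The median log2 fold change was -0.18, against -0.03 for all tested genes, of which 13.8% were lower and 10.4% higher. Described by the step of decay, of 17 tested deadenylases and adaptors 7 (41.2%) were lower and 0 higher (median -0.22). Of 14 decapping and 5'-to-3' decay genes 1 was lower and 2 higher (median -0.01). Of 9 exosome and Ski complex genes 0 were lower and 1 higher (median 0.00).

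Tob2 and Tob1, which encode anti-proliferative proteins that link deadenylase to RNA-bound proteins, had the largest falls of the deadenylation list. Tob2 was at 22.6, 23.6 and 21.99 FPKM in WT and at 10.5, 10.9 and 8.69 FPKM in PGRN KO, a log2 fold change of -1.11 ± 0.10 (SE, limma adjusted p = 0.00142). Tob1 fell from 8.25 ± 1.34 to 4.01 ± 0.352 FPKM and Btg1, a related gene, from 278 ± 21.3 to 189 ± 2.11 FPKM (SD, n = 3 each). Cnot1, the scaffold of CCR4-NOT to which tristetraprolin and Roquin bind, was at 11.8, 12.2 and 11.1 FPKM in WT and at 8.99, 9.20 and 4.435 FPKM in PGRN KO and did not pass (log2 fold change -0.63 ± 0.24, limma adjusted p = 0.0982).

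The shares of higher genes, 14.3% of the decapping list and 11.1% of the exosome and Ski list, were near the 10.4% of all tested genes. Xrn1, the exonuclease that degrades decapped mRNA, was at 2.49, 2.84 and 2.34 FPKM in WT and at 6.37, 5.43 and 3.39 FPKM in PGRN KO (a log2 fold change of 0.74 ± 0.19 SE, limma adjusted p = 0.0334). Dcp2, the decapping enzyme, rose from 12.6 ± 1.16 to 21.8 ± 5.76 FPKM (SD, n = 3 each, limma adjusted p = 0.037). For both genes replicate 6 was the lowest PGRN KO library and still above all WT libraries. Skiv2l, the helicase of the Ski complex, rose from 5.60 ± 0.166 to 7.79 ± 0.762 FPKM, whereas Lsm1, a subunit of the ring that activates decapping, fell from 6.15 ± 0.137 to 4.08 ± 0.415 FPKM. The calls of Xrn1 and Dcp2 held in 11 of 18 and 12 of 19 alternatives.

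Of 19 other RNA-binding regulators that were tested, 9 (47.4%) were lower and 0 higher (median -0.37), against 13.8% and 10.4% of all tested genes. Ptbp1, a pyrimidine tract binding protein, fell from 77.8 ± 4.93 to 48.0 ± 6.74 FPKM. Pabpc1, the cytoplasmic poly(A) binding protein, fell from 198 ± 12.8 to 126 ± 10.0 FPKM (SD, n = 3 each, limma adjusted p = 0.0068, against 0.0103 for Ptbp1). Hnrnpd, which encodes the AU-rich element binding protein AUF1, was at 13.8 ± 0.848 and 11.7 ± 1.67 FPKM (limma adjusted p = 0.202), and Arid5a, which protects Il6 mRNA from Regnase-1, at 10.8 ± 0.357 and 11.7 ± 2.07 FPKM (limma adjusted p = 0.63). Tia1 was at 0.481 to 0.701 FPKM and was not tested.

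Among the 5 tested relatives of the members, 2 (40%) were lower and 1 (20%) higher, against 13.8% and 10.4% of all tested genes. Zc3h12d, a further Regnase gene, fell from 2.77 ± 0.369 to 1.59 ± 0.263 FPKM, and Fubp1, a relative of Khsrp, from 10.6 ± 0.126 to 6.83 ± 0.944 FPKM. Khnyn, which encodes a nuclease domain related to that of Regnase-1, rose from 3.97 ± 0.201 to 6.71 ± 0.961 FPKM (SD, n = 3 each, limma adjusted p = 0.0106).

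The signals that switch these factors were also examined. The p38 kinase pathway inactivates tristetraprolin through the kinases MK2 and MK3, the phosphatase DUSP1 turns p38 off, and the protease MALT1, with BCL10, cleaves Regnase-1 and the Roquins. Of 16 tested genes 5 (31.25%) were lower and 1 (6.25%) higher, against 13.8% and 10.4% of all tested genes. Mapk14, which encodes p38 alpha, was the one that rose, at 2.42, 2.52 and 3.09 FPKM in WT and 3.47, 4.55 and 4.205 FPKM in PGRN KO (a log2 fold change of 0.46 ± 0.12 SE, limma adjusted p = 0.0344).

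The kinases downstream of p38 were lower. Mapkapk2, which encodes MK2, was at 549, 605 and 506 FPKM in WT and at 410, 387 and 435 FPKM in PGRN KO (a log2 fold change of -0.43 ± 0.11 SE, limma adjusted p = 0.0321), and Mapkapk3, which encodes MK3, fell from 14.4 ± 1.06 to 8.87 ± 0.340 FPKM (SD, n = 3 each). Dusp1, itself an mRNA with 2 nonamers, fell from 333 ± 36.1 to 209 ± 21.3 FPKM (log2 fold change -0.66 ± 0.12 SE, limma adjusted p = 0.0119). Bcl10 fell from 34.5 ± 1.63 to 24.2 ± 0.486 FPKM, and Malt1, at 113 ± 17.0 and 79.1 ± 25.4 FPKM, did not pass (limma adjusted p = 0.152). Transcript levels do not show whether the kinase or the protease was active.

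**Figure D3:**
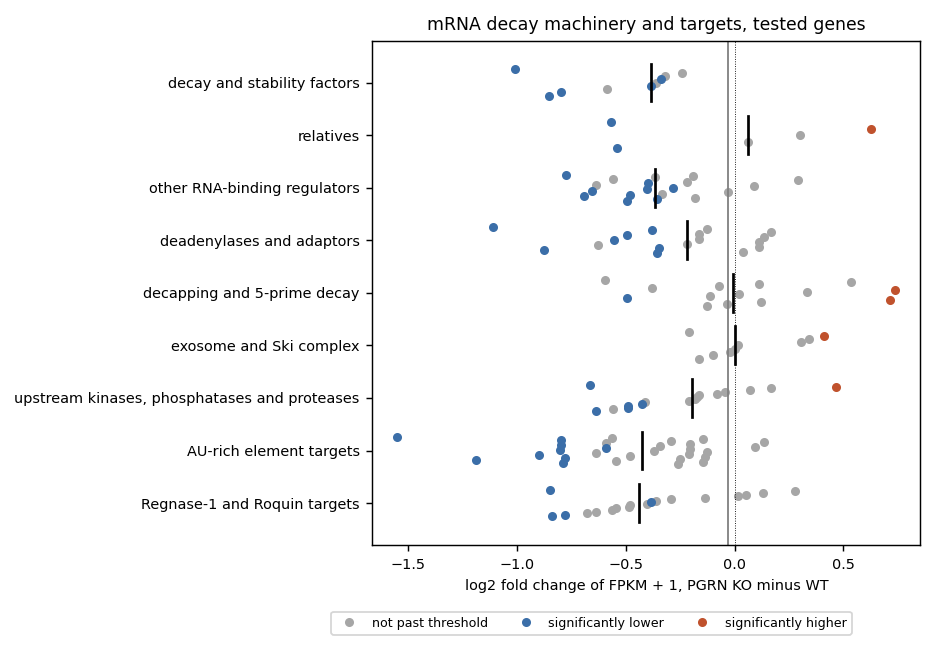
Log2 fold change of FPKM + 1, PGRN KO minus WT (x axis), of each tested gene by list, with list medians (black bars), the median of all tested genes (grey line), and genes significantly lower (blue), significantly higher (orange) or not past the threshold (grey). The members' median is -0.39, while the decapping and exosome lists have medians near 0 and hold 3 of the 5 genes of the decay lists that rose.

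None of the tested target mRNAs of these factors was significantly higher in PGRN KO cells. Of 41 listed targets 39 were tested, and 12 (30.8%) were significantly lower (median log2 fold change -0.39). Among all tested genes 13.8% were lower and 10.4% higher, with a median of -0.03. Of the 28 targets with AU-rich elements 9 (32.1%) were lower (median -0.43). Of the 18 targets of Regnase-1 and Roquin 4 (22.2%) were lower (median -0.44), among them Zc3h12a, whose mRNA is cut by its own product. By the number past the threshold, the targets moved with the processing, from 7 without WT replicate 1 to 26 with sample quality weights.

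The falls were led by Il10, which encodes the anti-inflammatory cytokine interleukin-10. It was at 229, 289 and 176 FPKM in WT and at 75.1, 68.0 and 88.6 FPKM in PGRN KO, a log2 fold change of -1.55 ± 0.19 (SE, limma adjusted p = 0.0034). Lif, a cytokine of the interleukin-6 family, fell from 360 ± 87.1 to 156 ± 26.3 FPKM, and Fos, an immediate early transcription factor, from 68.3 ± 1.47 to 36.2 ± 1.30 FPKM (SD, n = 3 each). All 3 passed in 19 of 19 alternatives.

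Among the listed targets of Regnase-1 and Roquin, Nfkbiz fell from 418 ± 83.1 to 230 ± 36.5 FPKM and Nfkbid from 442 ± 36.2 to 247 ± 30.4 FPKM (SD, n = 3 each, limma adjusted p = 0.0177 and 0.00569). Ptgs2, which encodes cyclooxygenase-2, was at 5606, 6346 and 4452 FPKM in WT and at 3730, 3460 and 2416 FPKM in PGRN KO (a log2 fold change of -0.78 ± 0.21 SE, limma adjusted p = 0.0392). Its groups did not overlap, and its call held in 11 of 19 alternatives.

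The major inflammatory cytokines did not pass. Tnf was at 7294, 9267 and 5418 FPKM in WT and at 6206, 4974 and 6447 FPKM in PGRN KO (a log2 fold change of -0.29 ± 0.22 SE, limma adjusted p = 0.365). Il6 was at 362, 455 and 255 FPKM in WT and at 270, 206 and 276 FPKM in PGRN KO (limma adjusted p = 0.157), and Il1b, at 5219 ± 1095 and 4694 ± 462 FPKM (SD, n = 3 each), had an adjusted p of 0.617. For these genes the groups overlapped, as they did for Zfp36, and the log2 fold changes of Tnf and Il1b had a range over the alternatives that crossed 0.

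Chemokine genes varied among themselves. Cxcl1 was at 2003, 2518 and 1518 FPKM in WT and at 1349, 1158 and 1296 FPKM in PGRN KO, and Cxcl2 at 7041 ± 1323 and 4731 ± 610 FPKM (SD, n = 3 each). Their groups did not overlap, but limma adjusted p was 0.0526 and 0.0616. Cxcl3, named after its values had been seen, fell from 507 ± 64.2 to 293 ± 37.8 FPKM (limma adjusted p = 0.0101), whereas Ccl3, named in the same way, was at 17850 ± 2715 and 15432 ± 1666 FPKM with overlapping groups (adjusted p = 0.421). Ier3, an early response gene, was at 3728 ± 758 and 2528 ± 312 FPKM (adjusted p = 0.0704) and Ccl2 at 450 ± 70.5 and 347 ± 56.9 FPKM (adjusted p = 0.15). Il12b was low, at 5.35 ± 0.472 and 5.57 ± 0.271 FPKM (adjusted p = 0.719).

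**Figure D4:**
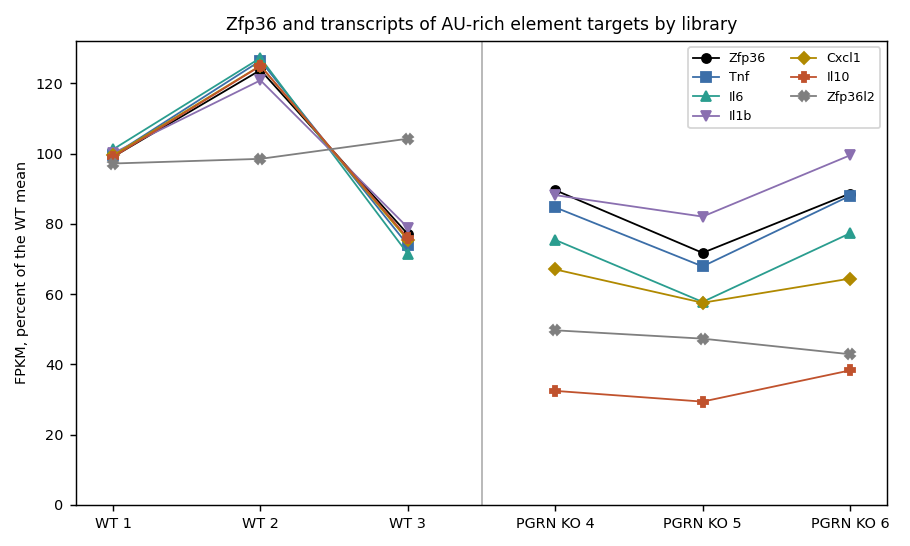
FPKM of Zfp36, of 5 mRNAs with AU-rich elements and of Zfp36l2 in each library as a percentage of the gene's WT mean (y axis, from 0). Lines only link the points of 1 gene, since replicates have no order. In WT replicates 1, 2 and 3 Zfp36 and the cytokine genes take nearly the same relative levels, and in PGRN KO the points of Zfp36, Tnf and Il1b overlap the WT range of the same gene, while those of Cxcl1, Il10 and Zfp36l2 lie below it.

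The values of Zfp36 varied between libraries much as those of Tnf did. Likeness was measured as the root mean square difference of centred log2(FPKM + 1) values over the 6 libraries. Among the other tested genes the nearest to Zfp36 was Tnf (0.044). It was followed by Acod1 (0.051), which encodes the enzyme that makes itaconate, and the predicted gene Gm4654 (0.053). This was looked up after the values of Zfp36 had been seen. The nearest to Zfp36l1 was Pprc1, a gene of a transcriptional coactivator (0.048). The nearest to Zc3h12a was the predicted gene Gm7964 (0.016), to Zc3h12c the predicted gene Gm48444 (0.014), and to Elavl1 the NAD kinase gene Nadk (0.016).

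The ratio to Zfp36 mRNA in the same library, which is free of library scaling, was computed for 8 mRNAs, also chosen after the values had been seen. For Tnf the ratio of FPKM was 21.0, 21.3 and 20.0 in WT and 19.7, 19.8 and 20.7 in PGRN KO, and the groups overlapped. For Il1b it was 14.9 ± 0.367 and 16.1 ± 1.29 (SD, n = 3 each), also overlapping. For Il10 it was 0.6592, 0.6658 and 0.6501 in WT and 0.239, 0.270 and 0.285 in PGRN KO, and for Lif 1.02 ± 0.00861 and 0.536 ± 0.0897. Cxcl1 had ratios of 5.72 ± 0.0970 and 4.35 ± 0.222 and Il6 of 1.01 ± 0.0573 and 0.855 ± 0.0341, without overlap. Cxcl2 had ratios of 20.2 ± 1.27 and 16.2 ± 1.49, lower in PGRN KO, and Nfkbia, which encodes the NF-kB inhibitor, of 2.03 ± 0.0218 and 2.20 ± 0.117, higher in PGRN KO, and the groups did not overlap for either. The share of all tested genes whose ratio to Zfp36 separates by genotype was not computed. These separations therefore have no background to be read against. In FPKM itself the groups of Il6 overlapped.

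The 3' UTR elements were then related to the fold changes of all tested genes as a description. The median log2 fold change was -0.02 for 7266 genes without the nonamer, -0.12 for 458 genes with 1 copy and -0.12 for 110 genes with 2 or more. It was -0.02 for 7424 genes without the stem-loop core and -0.13 for 410 genes with it, a class added after the data had been seen. Without PGRN KO replicate 6 it was -0.07 for genes with the core and -0.03 for genes without. After the length and GC correction it was -0.05 and 0.01, respectively. Genes with 2 or more nonamers had a median 3' UTR of 2666 bases and a median gene model of 5940 bases, against 887 and 4177 bases for genes without, and long genes were low in PGRN KO replicate 6.

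With that library left out the medians were -0.03, -0.06 and -0.09 for 0, 1 and 2 or more nonamers, and after the length and GC correction they were 0.01, -0.04 and -0.05. The interquartile range of each class was wide, from -0.36 to 0.13 for genes with 2 or more nonamers and from -0.26 to 0.23 for genes without. Of the genes with 2 or more nonamers 16.4% were significantly lower and 10.9% significantly higher, against 14.3% and 11.3% of those without.

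**Figure D5:**
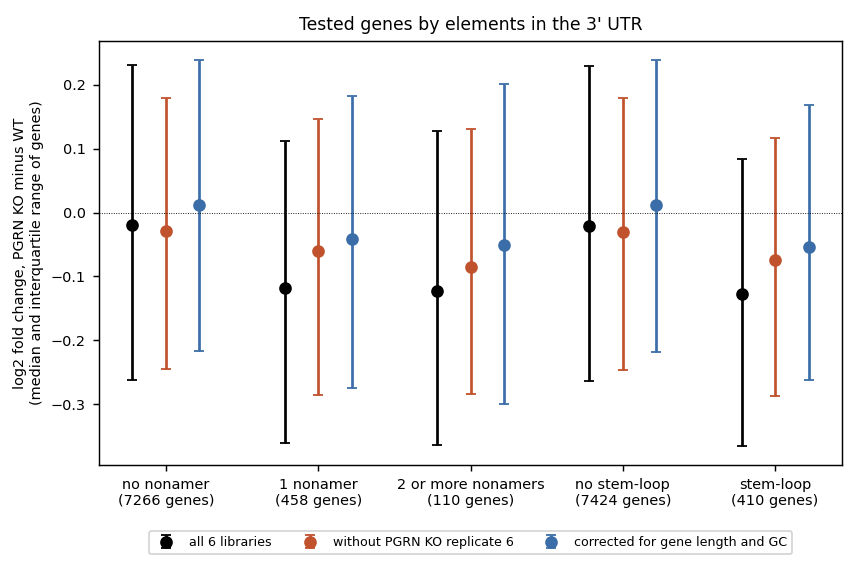
Median (points) and interquartile range (bars) of the log2 fold change of FPKM + 1, PGRN KO minus WT (y axis), of tested genes by AU-rich nonamers or the stem-loop core in the 3' UTR (x axis), over all 6 libraries, without PGRN KO replicate 6 and after correction for gene length and GC content. The classes overlap widely, and the medians of genes with 2 or more nonamers are -0.12, -0.09 and -0.05 in these 3 settings.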

How the data were processed

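Macrophage RNA was sequenced as 6 libraries, and the authors deposited FPKM per gene. The submitters' processing notes name CASAVA, HISAT2 2.0.5, featureCounts 1.5.0-p3, DESeq2 1.20.0 and mm10 or GRCm38, while the methods of the study name HTSeq for counting and other versions. No source used here says whether counting was strand-specific. FPKM times gene length gave whole fragments for 100% of values above 0 (tolerance 0.001), which gave the depth. Of 54532 genes 99.93% were found in GENCODE vM21.

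The 8882 genes whose FPKM averaged 1 or more were compared as log2(FPKM + 1) with limma 3.58.1 in R 4.3.3 (mean-variance trend, no covariates, two-sided, Benjamini-Hochberg threshold 0.05), since the values are not counts. The fit was tested on simulated counts. These held no length effect in any library and no library size other than the sum, so the test does not cover such features. Nothing states that replicates came from separate cultures, so p-values may measure technical spread. The members and lists were chosen with earlier results of these data known. Named genes were the members, up to 3 rises and 3 falls per list past the threshold without overlap, 19 genes fixed in advance and the 3 nearest genes of each member past the threshold, given in part, since some are not reported here. Alternatives were pseudocounts of 0.1 and 0.01, no filter, a mean FPKM of at least 5, TPM scale, sum of fragments as library size, quantile normalization, no trend, quality weights, limma voom, loess correction for length and GC content (span 0.5) with and without PGRN KO replicate 6, protein-coding genes, and leaving out each library.

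In each 3' UTR (longest coding transcript), elements were counted on the sense strand with overlaps. Words of 31 bases shared between genes were counted in the transcripts.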

Additional observations from a re-analysis of the deposited data

How the results depend on the processing

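Every member had a negative log2 fold change in each alternative, the ranges being -1.10 to -0.92 for Zfp36l2, -0.93 to -0.65 for Zfp36l1 and -0.42 to -0.08 for Zfp36. The 5 members past the threshold became 3 without a filter on low values, on a TPM scale, with library size taken as summed fragments, with quantile normalization and with limma voom. The 29 other decay genes became 17 without a filter and 17 on a TPM scale, 48 with quality weights and 44 with the length and GC correction without PGRN KO replicate 6. The 12 targets became 20 with the length and GC correction, 20 when PGRN KO replicate 6 was also left out, and 26 with quality weights. These weights were lowest for PGRN KO replicate 6 (0.0899) and highest for WT replicate 1 (3.79). The 2151 genes overall became 1366, 4225 and 3723 without a filter, with quality weights and with the correction without PGRN KO replicate 6, respectively. Leaving out each library in turn gave 1 to 7 members, 6 to 46 other decay genes, 7 to 19 targets and 713 to 3668 genes, the lowest counts without WT replicate 1 and the highest without PGRN KO replicate 6. The median of -0.12 for 2 or more nonamers was -0.050 after the length and GC correction, and -0.16 to -0.086 when each library was left out. For 3 or more copies of TATTTAT it was -0.19 (-0.093 without PGRN KO replicate 6 and -0.077 after the length and GC correction). Genes without TATTTAT had medians of 0.014 in the main fit, -0.018 without PGRN KO replicate 6 and 0.028 after that correction. The cause of these changes was not tested. No filter on low values raised the number of tested genes to 22912. Rc3h2 has no value at a mean FPKM of at least 5. No paired analysis was possible because no replicate number occurs in both genotypes.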
